A study of Homo sapiens with 4 samples.

Results

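The genes described here are 43 chaperone and unfolded protein response genes, chosen by symbol from a list and all matched once among the 60662 genes and transcripts of the deposited count table. They comprise 11 chaperones and folding enzymes of the endoplasmic reticulum (ER), 11 sensors, transcription factors and targets of the unfolded protein response, 12 cytosolic heat shock genes including the transcription factor HSF1, both genes of the mitochondrial chaperonin, and 7 of the subunits of the cytosolic chaperonin TRiC. The cells were U937, a human line of monocyte-like cells that was established from a histiocytic lymphoma. For the PMA libraries the cells spent 72 h in 10 nM of phorbol 12-myristate 13-acetate (PMA), which switches on protein kinase C, and for the untreated libraries they spent the same time without it. There was 1 library of each kind from each of 2 lots, so each group holds 2 libraries. The stated aim of PMA was to make the cells macrophage-like. What a lot is (a separate culture, vial or run) is not stated, so p-values measure only how far these 4 libraries spread, and that spread may be technical.

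Secretory and membrane proteins fold in the ER with the help of the HSP70 chaperone BiP (HSPA5), the HSP90 chaperone GRP94 (HSP90B1), the lectin chaperones calnexin and calreticulin, and protein disulfide isomerases. When unfolded protein accumulates there, the membrane sensors IRE1 (ERN1), PERK (EIF2AK3) and ATF6 start the unfolded protein response. IRE1 splices the mRNA of XBP1, ATF6 is cleaved to a transcription factor, and PERK phosphorylates a translation initiation factor, which favours translation of ATF4. In the cytosol, HSF1 drives heat shock genes, and the ring-shaped chaperonin TRiC folds actin, tubulin and other new proteins. Macrophages are phagocytic and secretory cells, and both tasks use proteins that fold in the ER.

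Among the 43 genes the clearest pattern was in TRiC, whose 7 measured genes were all lower in both PMA libraries than in both untreated ones, while the ER chaperones BiP and GRP94 and the disulfide isomerase PDIA3 stood above the untreated levels in both lots. With the edgeR quasi-likelihood fit and p-values adjusted over all 16451 genes tested (Benjamini-Hochberg), 1 of the 43 genes was lower with PMA and 0 were higher at an adjusted p of 0.05, where 2.02% of all genes tested were lower and 4.29% higher. DESeq2 called 6 higher and 7 lower, against 13.0% and 10.3% of all genes tested, and limma-voom called 1 and 2, against 6.98% and 3.87%. At an unadjusted p of 0.05 edgeR gave 8 higher and 10 lower, against 14.6% and 12.5% of all genes. The adjusted edgeR count is near the share in all genes, and the direction differed between compartments.

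All 43 genes passed the filter on low counts. Depth was 35739833 and 50822971 counts in the PMA libraries of lots 1 and 2 and 54915928 and 41308603 counts in the untreated libraries. Levels are normalised CPM, counts relative to a library size scaled by edgeR's TMM method, and log2 fold changes are PMA over untreated with their standard error. The macrophage markers ITGAX, ITGAM, CD14, CD68 and CD163 and the cell cycle inhibitor CDKN1A summed to 4431 and 4848 CPM with PMA, against 74.3 and 118 CPM without it. All 8 general myeloid markers were detected, the 5 T cell and 4 erythroid markers were at 0 in every library, and 4 B cell markers summed to between 4.79 and 10.0 CPM.

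The untreated libraries of the 2 lots stood apart from each other more than the PMA libraries did, and several of the 43 genes are affected. A difference of over 2-fold between the lots was seen in 3 of the 43 genes in the PMA libraries and 15 in the untreated libraries. These are 6.98% and 34.9% of the 43, against 22.1% and 38.8% of all genes tested. All but 1 of the 43 had a mean of at least 10 CPM, and among all such genes the shares were 7.30% and 30.1%. The 43 genes were thus near the share of genes at a like level. Among genes with a mean of at least 10 CPM, the difference in the untreated libraries moved with transcript length. The median log2 level in lot 1 minus that in lot 2 was −0.12 in the shortest genes (the lowest of 4 equal bins) and 0.27 in the longest in the PMA libraries, against −0.42 and 0.72 in the untreated libraries. It also moved with GC content, at 0.32 in the AT-richest bin and −0.21 in the GC-richest bin in the PMA libraries, against 0.76 and −0.48 in the untreated libraries. The median fitted fold change of the same length bins was −0.40 in the shortest and 0.41 in the longest. The part of these trends in single values below was not tested, except by the fits with length and GC offsets. Without untreated replicate 1, edgeR called DNAJB9, DNAJC3, ERN1 and PPP1R15A higher and HSPB1, HSPD1, CCT2, CCT3 and CCT5 lower, where 10.5% of all genes tested were called higher and 6.21% lower. Without untreated replicate 2 it called HSPA1A, HSPA1B and DNAJA1 higher and ASNS lower, where 4.94% of all genes tested were called higher and 2.49% lower. Exons of several of the 43 genes overlap another gene on the opposite strand, and with the strand setting unknown their reads cannot be told apart: this holds for HSPD1 with HSPE1, TCP1 with ACAT2, DNAJB1 with TECR, DNAJB9 with PNPLA8 and THAP5, CCT4 with COMMD1, HSP90AA1 with WDR20, DDIT3 with MARS and MBD6, and HSF1 with DGAT1. In bulk RNA, fewer cells of a type and less RNA per cell cannot be told apart.

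**Figure D1:**
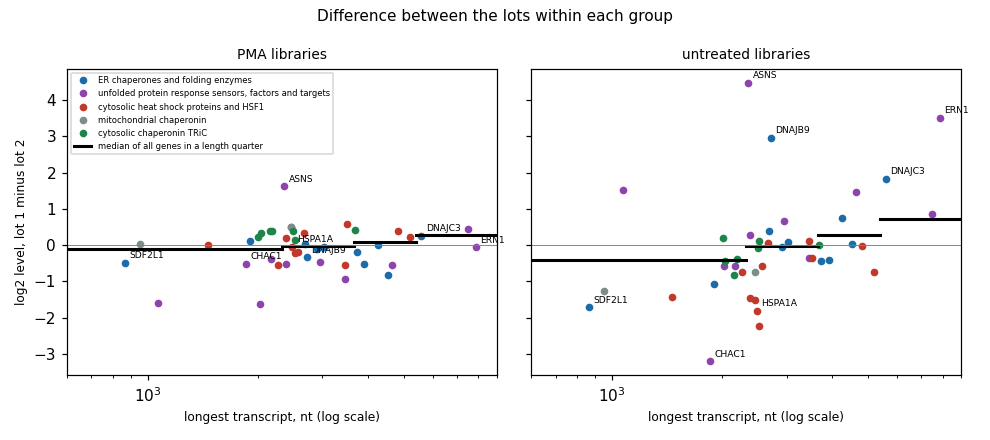
Difference of the log2 level between lot 1 and lot 2 within the PMA libraries (left) and within the untreated libraries (right), against the length of the longest annotated transcript on a log axis. Each point is 1 of the 43 genes, coloured by compartment, and black lines are medians of all genes with a mean of at least 10 CPM in each of 4 length bins. In the untreated libraries the points spread from −3.20 (CHAC1) to 4.48 (ASNS), and in the PMA libraries from −1.63 (ATF4) to 1.62 (ASNS).

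Matches to a known element of the unfolded protein response are shown first. The ER stress response element is read by ATF6 and XBP1 together with the CCAAT-binding factor NF-Y, and is spelled CCAAT, any 9 bases, then CCACG. RefSeq promoter windows (GRCh38.p14, 250 bases before to 50 after a start) were matched for 41 of the 43 genes, all but PDIA3 and HSF1. Searched on both strands in every window of a gene, these letters were present in 6 of the 41 genes, and in 25 of all 27305 genes with a window (0.0916%). Of the 6 genes, 5 are among the 10 ER chaperones or folding enzymes with a window, and the other is XBP1. The 43 genes were chosen as chaperone and unfolded protein response genes, so the higher share among them is not a test. In TRiC 0 of the 7 genes had a match, but with the letters so rare in all genes this does not set TRiC apart. The motif contains the CCAAT box, which alone was in 26 of the 41 genes and in 39.7% of all genes. The matches are given below with the fixed letters in capitals, each read on the strand that spells them.
HSPA5: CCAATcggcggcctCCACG
HSP90B1, distal: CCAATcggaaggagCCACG
HSP90B1, proximal: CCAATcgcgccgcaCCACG
PDIA6: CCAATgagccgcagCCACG
CALR: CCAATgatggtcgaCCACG
CANX: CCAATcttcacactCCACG
XBP1: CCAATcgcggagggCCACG

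The window of HSPA5 lies on the minus strand at chr9:125241294-125241593, and its match begins 66 bases before the start. That of HSP90B1 lies on the plus strand at chr12:103930160-103930459, with matches beginning 194 and 89 bases before the start, the second on the other strand. Both windows are printed 5′ to 3′ on the strand of the gene, with the matches in capitals, because these genes had the most alike differences in the 2 lots among the ER chaperones that carry the motif.
HSPA5: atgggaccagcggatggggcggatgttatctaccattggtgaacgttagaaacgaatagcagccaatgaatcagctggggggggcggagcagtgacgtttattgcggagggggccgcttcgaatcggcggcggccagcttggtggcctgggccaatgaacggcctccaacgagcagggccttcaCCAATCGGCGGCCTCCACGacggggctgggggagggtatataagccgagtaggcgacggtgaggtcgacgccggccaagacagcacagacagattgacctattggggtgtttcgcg
HSP90B1: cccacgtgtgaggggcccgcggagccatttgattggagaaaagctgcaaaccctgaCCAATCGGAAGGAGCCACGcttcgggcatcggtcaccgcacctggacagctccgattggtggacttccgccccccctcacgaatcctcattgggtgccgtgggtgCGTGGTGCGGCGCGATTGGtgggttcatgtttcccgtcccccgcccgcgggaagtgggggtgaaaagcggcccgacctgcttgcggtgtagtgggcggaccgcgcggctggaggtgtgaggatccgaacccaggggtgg

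Of the 11 ER chaperones and folding enzymes, 7 were higher in both PMA libraries than in both untreated ones, 0 were lower in both, and 4 overlapped, where 31.0% of all genes tested, and 35.3% of those with a mean of at least 10 CPM, were higher in both. None passed the edgeR test at an adjusted p of 0.05, where 4.29% of all genes tested were higher and 2.02% lower. At an unadjusted p of 0.05, 3 were higher and 0 lower, against 14.6% and 12.5%. DESeq2 called 2 higher and 0 lower, against 13.0% and 10.3%. The median log2 fold change was 0.39, against −0.00 over all genes tested, and the median was 0.73 within lot 1 and 0.74 within lot 2.

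HSPA5, which encodes BiP, the main HSP70 of the ER and a regulator of the stress sensors, had 620 and 883 CPM in the PMA libraries of lots 1 and 2, against 312 and 416 CPM in the untreated libraries. Its log2 fold change was 1.05 ± 0.34, or 0.99 within lot 1 and 1.09 within lot 2 (edgeR adjusted p = 0.132, DESeq2 adjusted p = 0.0455). HSP90B1, the ER form of HSP90, had 481 and 494 CPM with PMA, against 291 and 271 CPM without it. The groups of both genes were clear of each other, and the lots gave nearly the same difference. For HSP90B1 it was 0.73 and 0.86, with a fitted value of 0.80 ± 0.28 (edgeR adjusted p = 0.149, DESeq2 adjusted p = 0.0492).

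PDIA3, a disulfide isomerase that works with calnexin and calreticulin, had 803 and 918 CPM with PMA, against 405 and 551 CPM in the untreated libraries. The difference was again of the same size in both lots, at 0.99 and 0.74 (0.85 ± 0.31, edgeR adjusted p = 0.164). Entries named as its pseudogenes held 7.40% and 7.90% as many counts as the gene with PMA and 7.66% and 6.21% without it. PDIA4, another disulfide isomerase, had 301 and 328 CPM with PMA, against 236 and 245 CPM without it (0.39 ± 0.28). PDIA6 had 306 and 300 CPM with PMA, against 326 and 251 CPM without it, so that its groups overlapped.

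The lectin chaperones bind glycoproteins during folding. CALR, or calreticulin, had the highest CPM of the 43 genes over the 4 libraries together, though HSP90AB1 was higher in the untreated library of lot 1 and in the mean of the untreated libraries. CALR had 4066 and 3739 CPM in the PMA libraries, against 2258 and 4772 CPM in the untreated ones. The PMA libraries lay between the untreated ones, and the lots pointed in opposite directions, at 0.85 and −0.35. CANX, or calnexin, had 249 and 248 CPM with PMA, against 237 and 142 CPM without it. Among the genes with the ER stress response element, HSPA5 and HSP90B1 thus had similar differences in both lots, CANX had 0.07 in lot 1 and 0.81 in lot 2, and PDIA6, CALR and XBP1 overlapped between the groups.

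Of the co-chaperones of BiP, DNAJB9 and DNAJC3 were low in 1 untreated library. DNAJB9, a J-domain protein that helps BiP and is a target of XBP1, had 30.2 and 38.2 CPM with PMA, against 14.7 and 1.85 CPM in the untreated libraries. DNAJC3, a J-domain protein also known as an inhibitor of eIF2α kinases, had 128 and 107 CPM with PMA, against 95.1 and 26.6 CPM without it. In both genes the low value was the untreated library of lot 2, so that the log2 difference of DNAJB9 was 1.04 in lot 1 and 4.33 in lot 2. Neither passed the edgeR test (adjusted p = 0.265 and 0.420), but without the untreated library of lot 1 both did (edgeR adjusted p = 0.0186 and 0.0275). HYOU1, a large HSP70-like ER chaperone, had 75.1 and 132 CPM with PMA and 126 and 123 CPM without it. SDF2L1, which works with DNAJB11 and BiP, had 18.7 and 26.3 CPM with PMA and 11.1 and 36.5 CPM without it. Both overlapped between the groups.

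The sensors of the unfolded protein response were measured at low levels. ERN1, which encodes IRE1, had 40.2 and 42.1 CPM with PMA, against 45.0 and 3.94 CPM in the untreated libraries. The untreated library of lot 2 stood alone, so that the log2 difference was −0.16 in lot 1 and 3.40 in lot 2. The ERN1 transcript is the longest of the 43, at 7876 nt. Between the untreated lots the log2 difference was 3.50 for ERN1, 0.85 for ATF6 (7496 nt) and a median of 0.72 in the bin of longest genes. The part of length in the ERN1 value was not tested beyond the fits with length and GC offsets. ATF6 had 25.2 and 18.4 CPM with PMA, against 11.0 and 6.12 CPM without it, a difference of 1.19 and 1.58 in the lots (1.35 ± 0.51, edgeR adjusted p = 0.176). EIF2AK3, which encodes PERK, had 17.7 and 25.8 CPM with PMA, against 15.4 and 5.56 CPM without it. ATF6 and EIF2AK3 were thus higher in both PMA libraries than in either untreated one, EIF2AK3 by 0.20 in lot 1, and ERN1 was not.

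Downstream of IRE1, XBP1 had 150 and 197 CPM with PMA, against 171 and 256 CPM without it, and the groups overlapped (−0.30 ± 0.36, edgeR adjusted p = 0.658). Counts per gene do not tell spliced from unspliced XBP1 mRNA. HERPUD1, an ER membrane protein of the degradation machinery, had 40.6 and 56.4 CPM with PMA and 50.1 and 31.5 CPM without it, and also overlapped.

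Genes of the PERK branch went in different directions. ATF4, the transcription factor of that branch, had 133 and 412 CPM with PMA, against 488 and 726 CPM in the untreated libraries. It was lower with PMA in both lots, by 1.88 and 0.82 on the log2 scale, but the PMA libraries themselves lay over 2-fold apart (−1.16 ± 0.61, edgeR adjusted p = 0.304). PPP1R15A, also called GADD34, which directs a phosphatase to the phosphorylated initiation factor, had 174 and 248 CPM with PMA, against 75.5 and 62.5 CPM without it. Its log2 fold change of 1.61 ± 0.35 was above 1 in both lots (1.20 and 1.99), with an edgeR adjusted p of 0.0615 and a DESeq2 adjusted p of 0.000308. Over the other edgeR settings its adjusted p lay between 0.0410 and 0.430. DDIT3, or CHOP, the transcription factor linked to cell death under ER stress, had 13.5 and 40.5 CPM with PMA, against 58.9 and 20.6 CPM without it. Its lots pointed in opposite directions, at −2.13 and 0.97, and the gene overlaps MARS and MBD6 on the other strand, so that without known strand use some reads cannot be assigned.

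ASNS, or asparagine synthetase, a target of ATF4, had 0.890 and 0.260 CPM with PMA, against 45.0 and 1.97 CPM in the untreated libraries. Both PMA libraries were below both untreated ones, but nearly all of the signal was in the untreated library of lot 1 (−5.37 ± 1.70, edgeR adjusted p = 0.122, DESeq2 adjusted p = 0.000320). In the authors' deposited table ASNS is the only 1 of the 43 genes called, with a log2 ratio of −5.38 and a q-value of 0.0461, where that table calls 8.16% of the genes tested here. An entry that shares exons with ASNS on the same strand, AC079781.5, had 3.13 and 6.73 CPM with PMA, against 7.67 and 27.0 CPM without it. Summed with that entry, ASNS had 4.02 and 6.99 CPM with PMA, against 52.7 and 28.9 CPM in the untreated libraries. The sum was also lower in both lots, and the untreated libraries differed less than for ASNS alone. CHAC1, a glutathione-degrading enzyme and target of ATF4, had 2.45 and 3.50 CPM with PMA and 1.09 and 10.4 CPM without it. SESN2, a stress-induced inhibitor of mTORC1 signalling, had 15.3 and 29.1 CPM with PMA and 18.1 and 23.2 CPM without it. Neither separated the groups.

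Over the 11 sensors, factors and targets, 3 genes were higher and 2 lower in both PMA libraries than in both untreated ones and 6 overlapped, where 31.0% of all genes tested were higher and 29.4% lower. The edgeR test called 0, where 4.29% of all genes tested were higher and 2.02% lower. At an unadjusted p of 0.05 it gave 2 higher and 1 lower, against 14.6% and 12.5%. DESeq2 called 1 higher and 1 lower, against 13.0% and 10.3%. The median log2 fold change was 0.10, and its sign turned in other settings, to −0.42 without PMA replicate 2. The medians within the lots were −0.19 and 0.84. In 5 of the 11 the lots differed in sign.

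**Figure D2:**
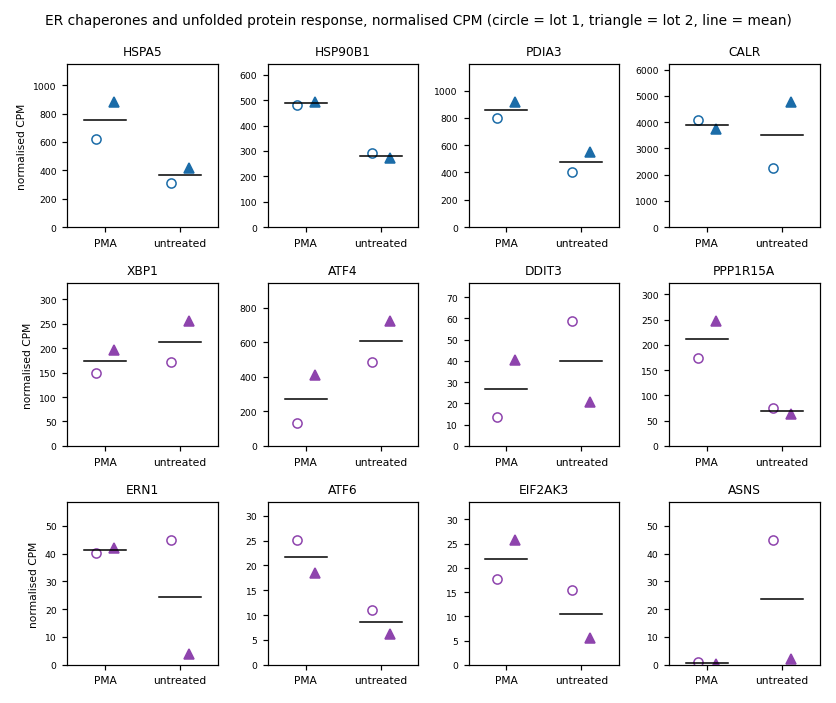
Normalised CPM of 4 ER chaperones and 8 unfolded protein response genes in each library, with PMA on the left of each panel and untreated on the right; circles are lot 1, triangles lot 2 and lines the mean of 2 libraries, on axes that start at 0. HSPA5, HSP90B1, PDIA3, PPP1R15A, ATF6 and EIF2AK3 have both PMA points above both untreated points, and ATF4 and ASNS have both below.

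The cytosolic heat shock genes were mixed. Of 12, 5 were higher and 2 lower in both PMA libraries than in both untreated ones, 5 overlapped, where 31.0% of all genes tested were higher and 29.4% lower. The median log2 fold change was 0.24 (0.87 within lot 1 and 0.23 within lot 2). The edgeR test called 0, where 4.29% of all genes tested were higher and 2.02% lower. At an unadjusted p of 0.05 it gave 3 higher and 1 lower, against 14.6% and 12.5%. DESeq2 called the same numbers at an adjusted p of 0.05, against 13.0% and 10.3%.

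The stress-inducible HSP70 genes HSPA1A and HSPA1B were low in all libraries. HSPA1A had 18.9 and 19.4 CPM with PMA, against 1.72 and 6.14 CPM in the untreated libraries. HSPA1B had 22.3 and 26.2 CPM with PMA, against 1.95 and 9.20 CPM without it. Their longest transcripts had 2300 identical positions of 2608 aligned (88.2%), with a run of 1715 identical bases, so reads could be split between them in either way. Their sum was 41.2 and 45.6 CPM with PMA, against 3.67 and 15.3 CPM without it, with a log2 fold change of 2.19 ± 0.75 (edgeR adjusted p = 0.144). Each was called by DESeq2 (adjusted p = 0.0181 and 0.0483), and without the untreated library of lot 2 also by edgeR (adjusted p = 0.0349 and 0.0299).

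Their promoter windows are also much alike, with 277 identical positions of 301 aligned (92.0%). Both hold 1 copy of the paired heat shock unit GAANNTTC, shown in capitals, to which HSF1 binds. This unit was in 8 of 11 cytosolic heat shock genes with a window, in 13 of all 41 genes and in 8.21% of all genes. The same letters followed by any 2 bases and GAA, a longer run that contains the unit, was in 4 of the 11 (HSPA8, HSP90AA1, HSP90AB1 and DNAJA1), in HSPD1 and in 0.608% of all genes. The heat shock genes were chosen by function, so the higher share among them is not a test. Among those higher in both PMA libraries, HSPA1A, HSPA1B and DNAJA1 had the paired unit and BAG3 and HSPH1 did not. Of those lower in both, HSP90AB1 had it and HSPA4 did not. HSPA8, HSP90AA1, HSPB1 and DNAJB1 had it and overlapped between the groups. The windows lie on the plus strand at chr6:31815293-31815592 for HSPA1A and chr6:31827488-31827787 for HSPA1B.
HSPA1A: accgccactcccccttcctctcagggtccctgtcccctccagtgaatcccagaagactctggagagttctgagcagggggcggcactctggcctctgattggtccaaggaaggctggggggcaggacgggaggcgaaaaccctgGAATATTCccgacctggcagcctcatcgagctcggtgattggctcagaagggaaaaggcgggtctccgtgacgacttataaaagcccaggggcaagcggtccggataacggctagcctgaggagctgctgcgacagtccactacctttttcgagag
HSPA1B: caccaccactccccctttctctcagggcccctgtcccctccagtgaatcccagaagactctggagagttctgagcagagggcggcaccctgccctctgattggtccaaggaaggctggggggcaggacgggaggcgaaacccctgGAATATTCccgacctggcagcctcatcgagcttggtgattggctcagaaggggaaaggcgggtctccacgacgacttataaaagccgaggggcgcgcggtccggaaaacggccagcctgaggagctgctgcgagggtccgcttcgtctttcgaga

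BAG3, a co-chaperone that links HSP70 to selective autophagy, had 35.0 and 39.7 CPM with PMA, against 9.83 and 14.6 CPM in the untreated libraries. It was above the untreated level in both lots by 1.83 and 1.43 on the log2 scale (1.61 ± 0.42, edgeR adjusted p = 0.0830, DESeq2 adjusted p = 0.00474), and with length and GC offsets it passed the edgeR test (adjusted p = 0.0350). HSPH1, a nucleotide exchange factor of HSP70, had 148 and 126 CPM with PMA, against 53.5 and 89.8 CPM without it. DNAJA1, a J-domain co-chaperone, had 112 and 98.7 CPM with PMA, against 29.6 and 81.4 CPM without it. All 3 were clear of the untreated libraries, and HSPH1 and DNAJA1 had the larger difference in lot 1. DNAJB1, another J-domain co-chaperone, had 97.9 and 142 CPM with PMA and 71.4 and 120 CPM without it, and overlapped.

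The constitutive cytosolic chaperones were lower with PMA or did not separate. HSP90AB1, the constitutive HSP90, had 2148 and 1699 CPM with PMA, against 3805 and 3621 CPM in the untreated libraries. Both lots were lower, by 0.82 and 1.09 on the log2 scale (−0.95 ± 0.28, edgeR adjusted p = 0.103, DESeq2 adjusted p = 0.0317). HSP90AA1, the inducible HSP90, had 558 and 374 CPM with PMA, against 368 and 468 CPM without it, and overlapped. Per length, the ratio of HSP90AB1 to HSP90AA1 was 5.06 and 5.96 in the PMA libraries, against 13.6 and 10.2 in the untreated libraries, a ratio that does not depend on scaling between libraries.

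HSPA8, the constitutive HSP70, had 1184 and 837 CPM with PMA, against 535 and 1523 CPM without it. Its lots pointed in opposite directions, at 1.15 and −0.86, and the untreated libraries were both the lowest and the highest. HSPB1, a small heat shock protein, had 280 and 278 CPM with PMA, against 240 and 643 CPM without it, and its lots likewise disagreed. HSPA4, another nucleotide exchange factor, had 72.4 and 54.9 CPM with PMA and 77.8 and 79.3 CPM without it. HSF1, the transcription factor of the heat shock response, had 43.7 and 63.6 CPM with PMA and 59.3 and 55.0 CPM without it (−0.09 ± 0.36), and it overlaps DGAT1 on the other strand.

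**Figure D3:**
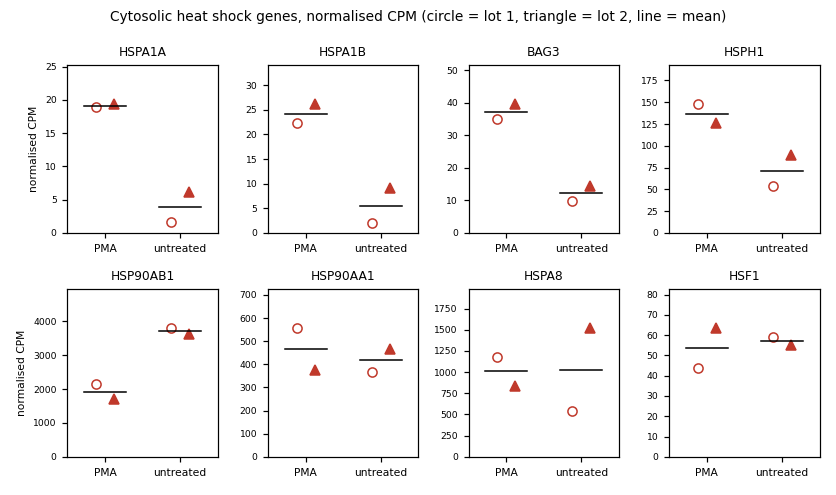
Normalised CPM of 8 cytosolic heat shock genes in each library, with PMA on the left of each panel and untreated on the right; circles are lot 1, triangles lot 2 and lines the mean of 2 libraries, on axes that start at 0. HSPA1A, HSPA1B, BAG3 and HSPH1 have both PMA points above both untreated points, HSP90AB1 has both below, and HSP90AA1, HSPA8 and HSF1 overlap.

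TRiC is a double ring in which each subunit type has a fixed place. All 7 of its measured genes had both PMA libraries below both untreated ones, where 29.4% of all genes tested and 29.9% of those with a mean of at least 10 CPM did, and their log2 fold changes lay between −1.67 and −0.78, with a median of −1.06. The medians within the lots were −0.80 and −1.43. By length, CCT2, CCT3, CCT7 and CCT8 were in the bin of shortest genes, whose median fold change was −0.40. TCP1 and CCT4 were in the next bin (−0.07), and CCT5 was in the one after it (0.23). The TRiC median was −0.96 with length and GC offsets and −0.97 with these and the lot as a block. The part of length was not tested beyond these fits. All 7 TRiC genes were lower at an unadjusted p of 0.05 by edgeR, where 12.5% of all genes tested were. By adjusted p, edgeR called 1 lower, against 2.02% of all genes tested, and DESeq2 called 4 lower, against 10.3%.

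CCT5 had 154 and 114 CPM in the PMA libraries, against 430 and 429 CPM in the untreated libraries. It fell by 1.67 ± 0.32 on the log2 scale (edgeR adjusted p = 0.0494) and was lower in both lots, by 1.48 and 1.91. The call is close to the threshold: it was lost with the lot as a replicate block (edgeR adjusted p = 0.0616) and kept in 8 of 15 other settings, with adjusted p-values from 9.39e-05 (DESeq2) to 0.357 (edgeR without PMA replicate 2). It was also lost by edgeR without PMA replicate 1 (adjusted p = 0.181) and without untreated replicate 2 (adjusted p = 0.0543). CCT2 had 68.6 and 52.6 CPM with PMA, against 144 and 189 CPM without it (−1.46 ± 0.34, edgeR adjusted p = 0.0703). CCT3 had 278 and 212 CPM with PMA, against 382 and 679 CPM in the untreated libraries (−1.11 ± 0.40, edgeR adjusted p = 0.161). No PMA value of these subunits reached an untreated one.

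TCP1, also a subunit of TRiC, had 164 and 126 CPM with PMA, against 291 and 306 CPM in the untreated libraries (−1.04 ± 0.31). ACAT2, whose exons overlap those of TCP1 on the other strand, had 3233 and 12219 counts with PMA and 9960 and 10220 without it, against 5351 and 5846 counts of TCP1 with PMA and 18384 and 13183 without it. CCT7 had 173 and 137 CPM with PMA, against 274 and 369 CPM without it (−1.06 ± 0.33). CCT4 had 306 and 280 CPM with PMA, against 531 and 492 CPM without it (−0.81 ± 0.28). CCT8 had 153 and 131 CPM with PMA, against 260 and 226 CPM without it (−0.78 ± 0.30). The edgeR adjusted p-values of these 4 were 0.106 to 0.178. CCT6A, a subunit gene outside the list of 43, had 163 and 136 CPM with PMA, against 227 and 238 CPM without it (−0.64 ± 0.29, edgeR adjusted p = 0.247), so it too was lower in both lots.

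Per kilobase of the longest annotated transcript, scaled to the same sum in each library, the 7 subunits lay between 45.9 (CCT2) and 267 (CCT3) TPM (a level per length) in the PMA libraries, against 164 (CCT2) to 601 (CCT3) TPM in the untreated libraries. The ratio of the most to the least abundant subunit was 4.13 and 4.63 with PMA, against 3.20 and 3.65 without it. The summed CPM of the 7 was 1297 and 1053 with PMA, against 2312 and 2691 without it. The ratio of the summed ER chaperones to the summed TRiC subunits per length, which does not depend on scaling between libraries, was 5.48 and 6.64 in the PMA libraries, against 1.88 and 2.77 in the untreated ones. By CPM rather than per length, CALR supplied 57.4% and 51.8% of the ER chaperone sum with PMA and 52.4% and 69.8% without it. Per length CALR had 4410 and 3751 TPM with PMA, against 3103 and 4767 TPM without it, so its groups overlapped. The summed CPM of the ER chaperones was 7079 and 7214 with PMA, against 4312 and 6835 without it. In lot 2 the ER sum was thus nearly level, while the TRiC sum was lower with PMA in both lots.

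The mitochondrial chaperonin is made of HSP60 (HSPD1) and its lid HSP10 (HSPE1). HSPD1 had 205 and 147 CPM with PMA, against 462 and 779 CPM in the untreated libraries. It was lower in both lots, by 1.17 and 2.41 on the log2 scale (−1.82 ± 0.40, edgeR adjusted p = 0.0636, DESeq2 adjusted p = 0.00101), and its q-value in the authors' deposited table is 0.0911. HSPE1 had 60.9 and 59.1 CPM with PMA, against 54.8 and 131 CPM without it. The untreated library of lot 1 was below both PMA libraries, so the groups overlapped. Per length the ratio of HSPE1 to HSPD1 was 0.765 and 1.04 with PMA, against 0.306 and 0.435 without it. Entries named as pseudogenes of HSPD1 (17) held 6.60% and 6.76% as many counts as the gene with PMA and 3.98% and 4.93% without it.

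HSPD1 and HSPE1 stand head to head, and their exons overlap on opposite strands in the GENCODE annotation, so part of their reads, and with them the ratio above, cannot be assigned without the strand setting. The RefSeq starts used here are at positions 197500274 (HSPD1, minus strand) and 197500379 (HSPE1, plus strand) of chromosome 2, with 104 bases between them. Those bases are in capitals in the HSPE1 window, on the plus strand at chr2:197500129-197500428, and hold the E-box CACGTG, which was in 7 of the 41 genes with a window, in 0 of the 7 TRiC genes and in 8.77% of all genes.
HSPE1: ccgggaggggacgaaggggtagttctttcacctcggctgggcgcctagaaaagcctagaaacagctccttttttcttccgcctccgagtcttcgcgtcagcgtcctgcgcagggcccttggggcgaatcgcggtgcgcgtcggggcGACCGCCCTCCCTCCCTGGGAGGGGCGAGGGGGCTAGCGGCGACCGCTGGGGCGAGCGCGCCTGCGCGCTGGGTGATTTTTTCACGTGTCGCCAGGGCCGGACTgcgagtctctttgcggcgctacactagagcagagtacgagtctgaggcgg

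**Figure D4:**
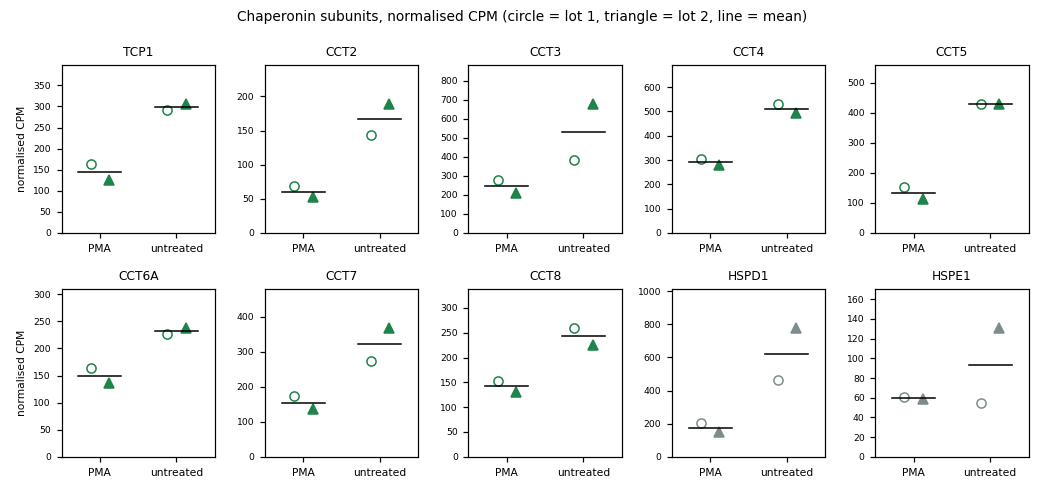
Normalised CPM of the 7 listed TRiC subunits, of CCT6A and of HSPD1 and HSPE1 in each library, with PMA on the left of each panel and untreated on the right; circles are lot 1, triangles lot 2 and lines the mean of 2 libraries, on axes that start at 0. Both PMA points lie below both untreated points in every panel but HSPE1, where the untreated library of lot 1 lies lowest at 54.8 CPM.

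By lot, 16 of the 43 genes were higher with PMA in both, 13 were lower in both and 14 differed in sign, where 37.8% of all genes tested were higher in both and 35.9% lower in both (42.8% and 35.8% at a mean of at least 10 CPM). In TRiC 7 of 7 were lower in both lots, among the ER chaperones 7 of 11 were higher in both, and in the unfolded protein response 5 of 11 differed in sign. The lots lay farthest apart in ERN1, DNAJB9 and DDIT3, in each of which the untreated libraries were over 2-fold apart.

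**Figure D5:**
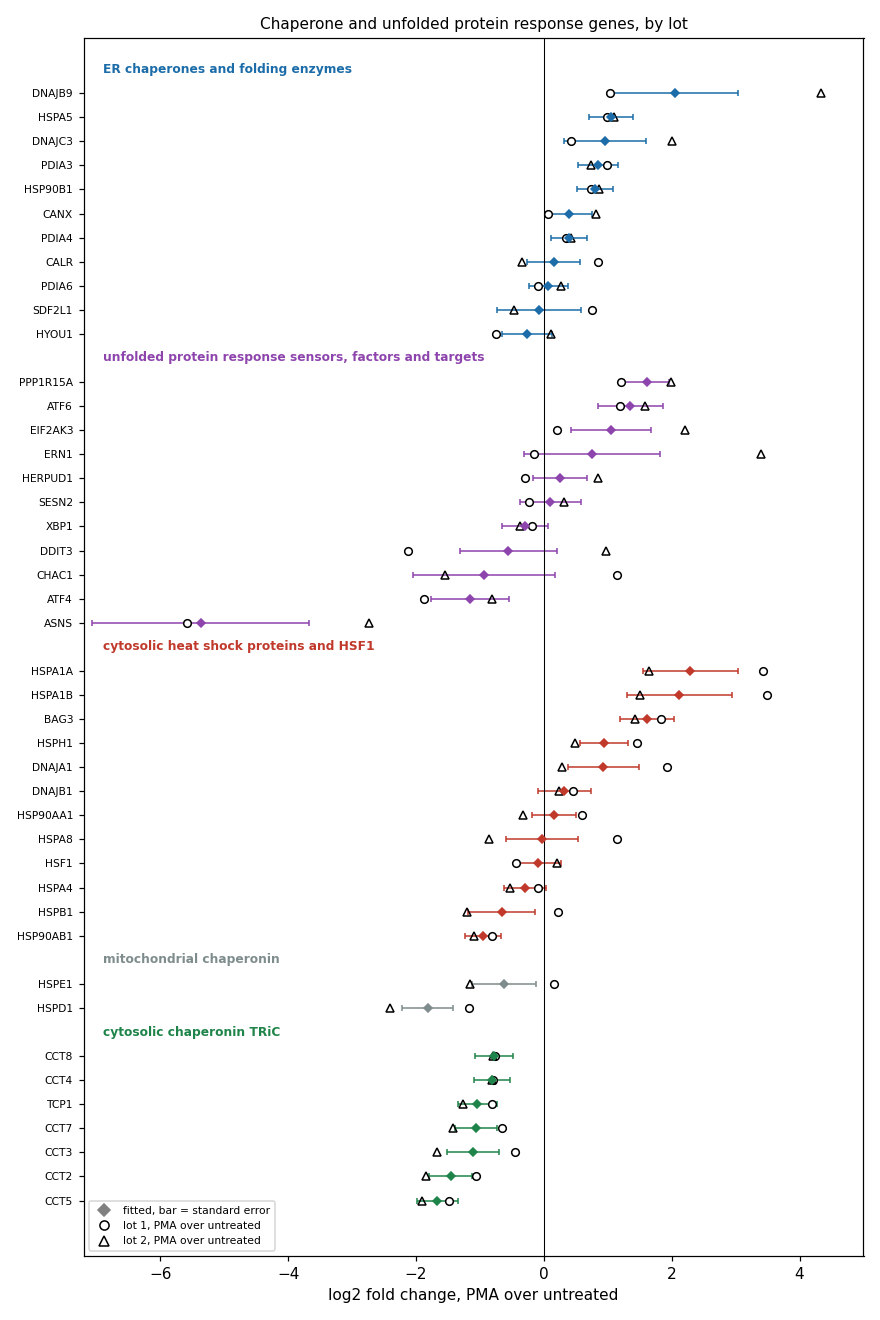
Log2 fold change of PMA over untreated for the 43 genes by compartment; diamonds are the fitted values with their standard error, circles the difference within lot 1 and triangles that within lot 2. All 7 TRiC genes lie left of 0 in both lots, while the unfolded protein response genes range from −5.37 (ASNS) to 1.61 (PPP1R15A).

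Related genes outside the 43 were described with lists that follow the same compartments. Of all genes tested, edgeR called 4.29% higher and 2.02% lower, or 14.6% and 12.5% at an unadjusted p of 0.05. DESeq2 called 13.0% higher and 10.3% lower. Of 29 other genes of ER folding, translocation and degradation, 0 passed the edgeR test, 6 were higher and 2 lower at an unadjusted p of 0.05, DESeq2 called 5 and 1, and the median log2 fold change was 0.52. The member with the smallest p was P4HB, a disulfide isomerase and subunit of prolyl hydroxylase, with 1168 and 1131 CPM with PMA, against 2861 and 2697 CPM without it (−1.27 ± 0.26, edgeR adjusted p = 0.0566). It lay in the opposite direction to PDIA3 and to most of its list, where 23 of the 29 fitted values were above 0 and 6 below.

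Of 14 other integrated stress response genes, edgeR called 3 higher and 0 lower, against 4.29% and 2.02% of all genes tested. Their median log2 fold change was 0.44, or 0.11 within lot 1 and 0.96 within lot 2. Of the 14 fitted values 9 were above 0 and 5 below, and in 5 genes the lots differed in sign. The stress-induced transcription factor ATF3 had 197 and 237 CPM with PMA, against 3.47 and 0.811 CPM without it, and rose by 6.65 ± 0.87 (edgeR adjusted p = 0.0274). EIF2AK2, or PKR, the eIF2α kinase activated by double-stranded RNA and an interferon-stimulated gene, had 284 and 283 CPM with PMA, against 64.1 and 34.1 CPM without it (2.53 ± 0.42, edgeR adjusted p = 0.0393). DDIT4, an inhibitor of mTORC1 signalling, had 60.9 and 95.8 CPM with PMA, against 15.4 and 11.6 CPM without it (2.54 ± 0.43, edgeR adjusted p = 0.0398, or 0.0590 with the lot as a replicate block).

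Of 26 other cytosolic chaperones and co-chaperones, edgeR called 1 higher and 2 lower, against 4.29% and 2.02% of all genes tested. Their median log2 fold change was −0.21. DNAJB2, a J-domain protein that passes clients to the proteasome, had 50.0 and 68.2 CPM with PMA, against 6.39 and 8.62 CPM without it, and rose by 2.98 ± 0.42 (edgeR adjusted p = 0.0310). FKBP5, a co-chaperone of HSP90 and the glucocorticoid receptor, had 12.5 and 14.6 CPM with PMA, against 109 and 58.8 CPM without it (−2.63 ± 0.46, edgeR adjusted p = 0.0423, or 0.0588 with the block). HSPA4L, an HSP110 family member, had 1.47 CPM in both PMA libraries, against 15.6 and 10.1 CPM without it (−3.12 ± 0.57, edgeR adjusted p = 0.0464, or 0.0665 with the block).

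Of 9 other mitochondrial chaperones and proteases, edgeR called 1 lower and 0 higher, against 2.02% and 4.29% of all genes tested. Their median log2 fold change was −1.09, with 8 fitted values below 0 and 1 above. At an unadjusted p of 0.05, 5 were lower and 0 higher, against 12.5% and 14.6% of all genes tested. DESeq2 also called 5 lower and 0 higher, against 10.3% and 13.0%. The gene called by edgeR was TRAP1, the mitochondrial HSP90, with 50.9 and 42.8 CPM with PMA, against 272 and 280 CPM without it (−2.56 ± 0.31, edgeR adjusted p = 0.0254). Among CCT6A, the prefoldin subunits and other partners of TRiC, 0 of 8 passed the edgeR test, and the median was −0.72. At an unadjusted p of 0.05, 1 was higher and 2 lower, against 14.6% and 12.5% of all genes tested. DESeq2 called the same numbers, against 13.0% and 10.3%. The smallest p was that of PFDN5, which had 158 and 152 CPM with PMA, against 59.1 and 82.9 CPM without it (1.13 ± 0.33, edgeR adjusted p = 0.105), opposite to the other 7 genes of that list, whose fitted values were below 0.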

How the data were processed

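The 4 U937 libraries were prepared from poly(A)-selected RNA for Ion sequencing, per the labels' protocols. The authors deposited whole-number estimated counts per gene. A second deposited table gives a scaled signal (the count times 1 factor per library), the authors' log2 ratio, and their p-values and q-values. HISAT2 2.1.0 and StringTie 2.1.1 are named in the submitters' processing notes; for the genome build, annotation, counting program and strand setting, the sources used here give nothing.

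Counts were rounded, which changed none, and tested with edgeR 4.0.16 (TMM scaling, its filter on low counts by group, quasi-likelihood test, Benjamini-Hochberg adjustment over 16451 genes at 0.05) in R 4.3.3, on both groups with no block. The procedure was tested on simulated data. DESeq2 1.42.0, limma-voom 3.58.1, other scalings and filters, the lot as a block, each library left out, and the HSPA1A and HSPA1B sum were alternatives; offsets for transcript length and GC content (GENCODE, available for 99.1% of genes tested) were added after seeing the data. The labels give each lot 1 PMA and 1 untreated library, and the pairing by lot rests on these labels. The deviations of the lot 1 libraries from their group means correlated at 0.154 over genes, which is weak and does not test the pairing. Differences within and between lots are on the log2 CPM scale with a prior count of 2.

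The 43 genes and the other lists were chosen with earlier results of these data known. Values in every library are given for all 43; from the other lists, up to 3 called genes in each direction with the smallest p are named, or the 1 with the smallest p where none passed, beside CCT6A, which was added as a further TRiC subunit. The paired heat shock unit and the E-box were added to the motif search after its first results were seen. Promoter sequences are from RefSeq (GRCh38.p14).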

Additional observations from a re-analysis of the deposited data

How the results depend on the processing

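Over 15 alternative settings, 641 values of the 43 genes were recomputed: 565 kept direction and side of the threshold, 31 in 18 genes passed it newly, 7 (all CCT5) no longer passed, and 38 in 16 genes changed sign, none of them in TRiC. With the lot as a replicate block, edgeR called 591 genes higher and 244 lower, and 0 of the 43 lower; the ER median was 0.44, SDF2L1 0.14 and HSPA8 0.14. The block with length and GC offsets gave 0 of the 43 lower, an ER median of 0.40, SDF2L1 0.37, SESN2 −0.04 and HSPA8 0.25. Length and GC offsets alone gave 1218 genes higher and 808 lower, 1 of the 43 higher, SDF2L1 0.30 and HSPA8 0.08. DESeq2 gave 2136 and 1698 genes, 6 and 7 of the 43, and an ER median of 0.40. Limma-voom gave 1149 and 636 genes, 1 and 2 of the 43, an ER median of 0.42, SDF2L1 0.21 and HSPA8 0.16. A floor of 5 CPM gave 721 genes lower, 1 of the 43 higher and 3 lower, and an ER median of 0.34. No filter gave 0 of the 43 lower, as did RLE size factors, with an ER median of 0.40.

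Upper-quartile factors moved the median of all genes to −0.17 and gave an ER median of 0.24, PDIA6 −0.09, CALR −0.05, SESN2 −0.07 and HSP90AA1 −0.02. Library totals that leave out mitochondrial genes and the top 20 genes moved it to −0.22, with 2 of the 43 lower, an ER median of 0.17, PDIA6 −0.15, CALR −0.06, SESN2 −0.11 and HSP90AA1 −0.06.

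Leaving out 1 library at a time gave 424 to 1830 genes higher and 79 to 1085 lower, 0 to 4 of the 43 higher and 0 to 5 lower, and medians of 0.38 to 0.75 for the ER, −0.07 to 0.83 for the cytosolic genes and −0.42 to 0.40 for the unfolded protein response. The median of the unfolded protein response was also below 0 with upper-quartile factors (−0.07), with the reduced totals (−0.11) and with the block and offsets (−0.04). The log2 fold changes whose sign turned then ranged as follows: HYOU1 −0.71 to 0.02, SDF2L1 −0.76 to 1.02, PDIA6 −0.10 to 0.21, CALR −0.35 to 0.79, ERN1 −0.13 to 3.32, XBP1 −0.62 to 0.02, DDIT3 −1.55 to 0.33, HERPUD1 −0.05 to 0.56, CHAC1 −1.86 to 1.45, SESN2 −0.42 to 0.43, HSPA8 −0.65 to 0.92, HSP90AA1 −0.22 to 0.43, HSPB1 −1.27 to 0.22, DNAJB1 −0.07 to 0.75, HSF1 −0.37 to 0.09 and HSPE1 −1.19 to 0.13. A lone library was assumed to vary like the other group. The cause of these changes was not tested. Each group had 2 libraries, and the common biological coefficient of variation over all genes tested was 0.626. Most differences among the 43 genes did not pass the edgeR test, and the reason was not tested.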
